A study of Mus musculus with 45 samples.

Results

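Expression arrays of mouse induced pluripotent stem cell (iPSC) lines at passage 10 were compared between lines made from tail tip fibroblasts (TTF) and lines made from lymphocytes. The comparison rests on 9 of the 45 arrays of the series, chosen by their labels: 3 TTF clones, 3 splenic B cell clones and 3 T cell clones, all at passage 10 and all from mouse 2. The difference was taken as the TTF mean minus the mean of the B cell and T cell group means, called the lymphoid mean here, over 12394 genes. The remaining 3 arrays of the same table, from granulocyte-derived clones of mouse 2 at passage 10, entered the fit only to estimate the spread and are quoted where they bear on a result. All lines came from what the submitters name a secondary system, in which somatic cells of mice that carry inducible reprogramming factors are reprogrammed again. The labels name no strain, age, sex or inducing dose. Every line was grown in serum and LIF on irradiated embryonic fibroblasts (MEFs), which were removed by preplating after trypsin. Clones are separate lines of 1 animal, so p-values measure how clones of this animal vary and say nothing of variation among mice. The values are log2 RMA intensities, and array medians lay between 6.982 and 7.097.

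Reprogramming resets a somatic cell to a pluripotent state, and iPSC lines can keep transcripts of the cell they came from for some passages. Fibroblasts secrete and crosslink the collagen matrix, whereas lymphocytes do not, so collagens and their partners are the usual marks of fibroblast origin. The feeder layer consists of fibroblasts as well and expresses the same genes. Separately, mouse iPSC lines are known to differ in the imprinted Dlk1-Dio3 region, whose noncoding RNAs Meg3 (also called Gtl2) and Rian are transcribed from the maternal chromosome, and a small share of cells in pluripotent cultures switches on transcripts of the 2-cell embryo.

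The labels were checked against markers. Pou5f1, which encodes the pluripotency factor Oct4, lay at 12.992, 12.894 and 13.047 in the TTF clones and between 12.981 and 13.245 in the lymphoid clones. Nanog and Sox2, its partners, differed by -0.08 ± 0.07 (SE) and -0.03 ± 0.06 on the log2 scale and were not called. Of 26 measured pluripotency genes 0 were called by limma, and 3 were higher at an unadjusted p under 0.05. Over all genes 5.7% were higher and 7.37% lower at that unadjusted p. The marks of lymphocytes were low in all groups: the B cell receptor gene Cd79a averaged 5.031 in TTF lines, 5.148 in B cell lines and 4.976 in T cell lines, and Ptprc, the CD45 gene of all leukocytes, 3.659, 3.839 and 3.643. Of 21 B cell genes 0 were called (1 higher and 0 lower at an unadjusted p under 0.05). Among 20 T cell genes the called one was Thy1, which fibroblasts express too (3 higher and 2 lower, unadjusted). The TTF clones lay above all lymphoid clones in Thy1 and below them in Lat and Cd8b1 (2.6% and 3.78% of all genes). Of 20 pan-haematopoietic genes 0 were called (3 higher and 0 lower, unadjusted). Some fibroblast genes were bright in every line, lymphoid lines included: Col1a2 read 10.501 or more in each of the 9. Others were not: Postn read 6.422 to 6.996 in lymphoid lines, against array medians of 6.982 to 7.097.

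At passage 10 the TTF lines differed from the lymphoid lines in few genes, and nearly all of these were higher in TTF lines. Counting as called a gene with a Benjamini-Hochberg adjusted p under 0.05 in limma (two-sided), 44 genes were called (0.355% of all tested), 41 of them higher (0.331%) and 3 lower (0.0242%). In 40 of the 41, all 3 TTF values lay above all 6 lymphoid values. Over all genes that held for 322 (2.6%), and 468 (3.78%) lay below. The differences were small, from 0.42 to 1.23 on the log2 scale, or 1.33- to 2.34-fold. At an unadjusted p under 0.05 there were 707 genes higher (5.7%) and 913 lower (7.37%). The count depends on single clones: it was 1 without TTF clone 1, 8 without TTF clone 2 and 95 without TTF clone 3, 7 without B clone 2 or B clone 3, 13, 23 and 86 without T clones 1, 2 and 3, and 9 without granulocyte clone 3. AF067061 was called in all 12 fits with an array left out, and 42 of the 44 genes kept their sign in every alternative setting that gave them a value (21 or 22 settings). Each gene was read from its brightest probe set. Of the 23 called genes with several probe sets, 18 were not called with the mean of the probe sets in its place and 15 moved by over 1.5 times, as given beside each gene below. All probe sets of a gene had the same sign in 19 of the 23, and in Osmr, Acta2, Lbh and Cpq 1 of 2 had the opposite sign.

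**Figure D1:**
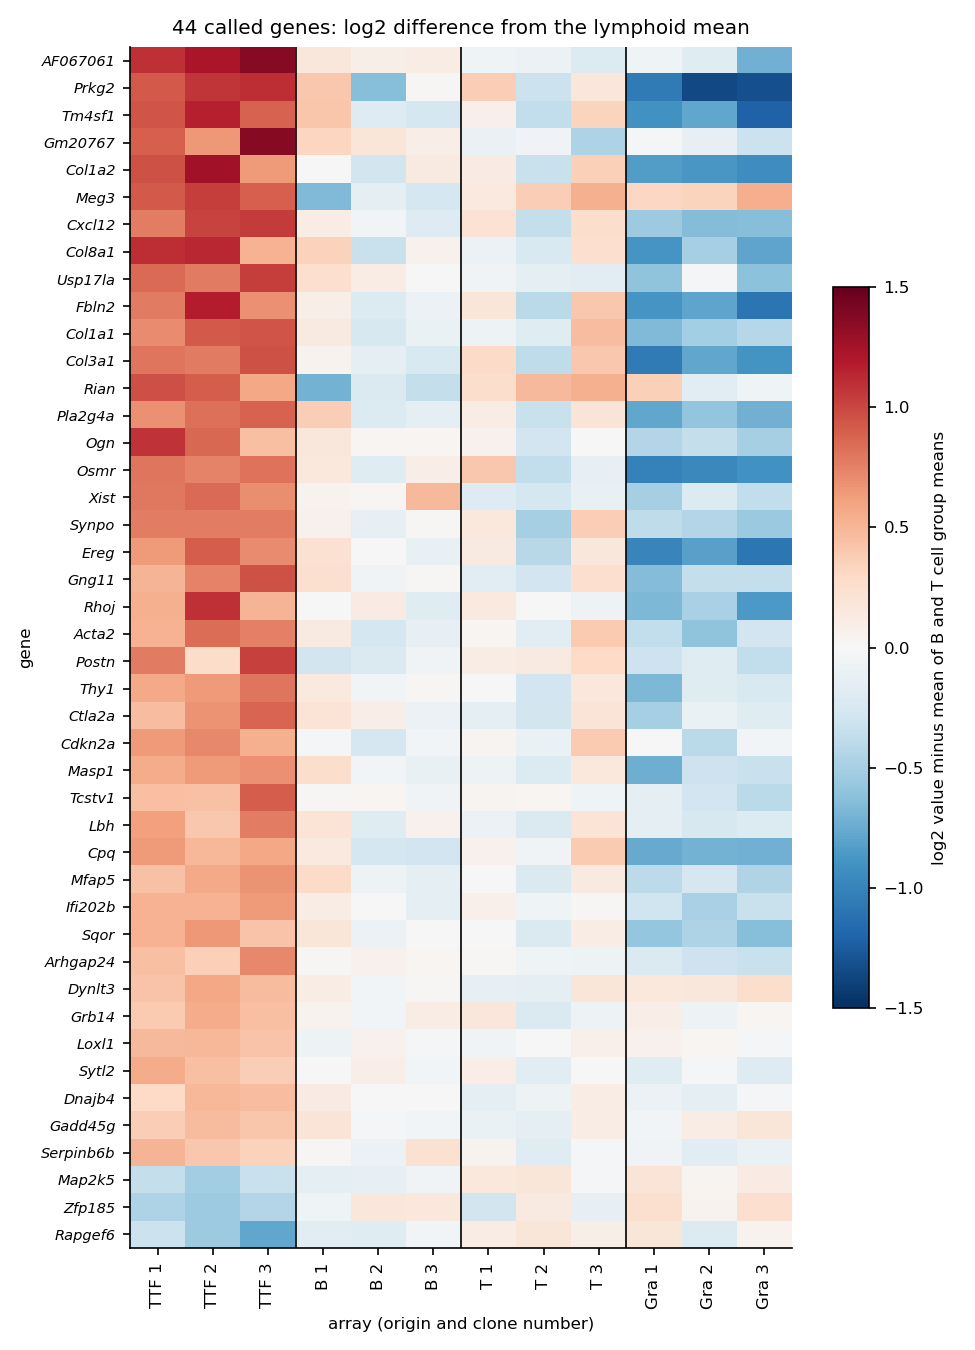
Values of the 44 called genes (rows) in the 12 passage 10 arrays (columns), as the log2 difference from the lymphoid mean, with red above and blue below it. The 3 TTF columns are red in the 41 higher genes and blue in Map2k5, Zfp185 and Rapgef6, and the granulocyte columns are blue in most of the higher genes.

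Of the 44 called genes 17 were on one of the gene lists used here. The upstream DNA of 4 called genes described first below is shown: a gene of a multicopy family (AF067061), an imprinted RNA (Meg3), the X inactivation RNA (Xist) and a collagen (Col1a2). The sequences are the 250 bases before the RefSeq transcript start in GRCm38.p6, 5′ to 3′ on the gene's strand, at chr13:120262845-120263094 (+), chr12:109540746-109540995 (+), chrX:103483234-103483483 (-) and chr6:4505368-4505617 (+). Capitals mark matches on either strand to the TATA box (TATAAA), the CCAAT box, the GC box (GGGCGG), the AP-1 motif (TGANTCA) or the cyclic AMP response element (TGACGTCA).
AF067061: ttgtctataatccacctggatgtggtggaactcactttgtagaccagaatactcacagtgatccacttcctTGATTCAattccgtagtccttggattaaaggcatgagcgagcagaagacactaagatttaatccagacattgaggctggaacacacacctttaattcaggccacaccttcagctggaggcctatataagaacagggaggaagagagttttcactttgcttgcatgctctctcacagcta
Meg3: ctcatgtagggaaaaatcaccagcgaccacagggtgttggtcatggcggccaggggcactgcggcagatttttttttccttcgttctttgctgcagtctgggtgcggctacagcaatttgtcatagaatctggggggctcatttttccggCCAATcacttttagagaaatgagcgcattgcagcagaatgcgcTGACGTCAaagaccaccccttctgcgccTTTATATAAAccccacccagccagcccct
Xist: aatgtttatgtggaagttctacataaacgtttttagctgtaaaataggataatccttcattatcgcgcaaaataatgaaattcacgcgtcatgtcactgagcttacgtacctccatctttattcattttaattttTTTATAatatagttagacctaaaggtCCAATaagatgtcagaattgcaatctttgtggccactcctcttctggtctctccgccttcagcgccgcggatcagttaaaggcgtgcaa
Col1a2: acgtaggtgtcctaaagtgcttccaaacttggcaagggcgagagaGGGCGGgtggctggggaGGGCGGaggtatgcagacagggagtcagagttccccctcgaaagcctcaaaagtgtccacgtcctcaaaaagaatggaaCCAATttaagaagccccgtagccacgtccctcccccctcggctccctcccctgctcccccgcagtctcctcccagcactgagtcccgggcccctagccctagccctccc

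The 4 sequences hold no motif in common. AF067061 has 1 AP-1 match at -179 from the start. Meg3 has a TATA match on each strand at -29 and -25, overlapping each other, with the cyclic AMP response element at -57 and CCAAT at -100. Another RefSeq start of Meg3, with upstream bases at chr12:109545148-109545397 (+), is not shown and has no match. Xist has a TATA match at -115 and CCAAT at -89, and Col1a2 has GC boxes at -205 and -188 and CCAAT at -109. In the RefSeq table of 32851 promoters (300 bases each, 250 before to 50 after the start) the shares with a match were 13.6% for the TATA box, 37.4% for the CCAAT box, 35.7% for the GC box, 7.81% for the AP-1 motif and 1.79% for the cyclic AMP response element. Of the 44 called genes 30 were in that table, with 36 promoters, of which 11, 11, 15, 4 and 1 held these motifs. A match is a run of letters and does not show binding.

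The largest called difference was that of AF067061, a gene of a multicopy family on chromosome 13 that is described among transcripts of 2-cell-like cells. It is not on the germline and 2-cell list used here. The TTF clones read 8.187, 8.315 and 8.460, the B cell clones 7.260, 7.178 and 7.206, and the T cell clones 7.024, 6.999 and 6.884. All 6 lymphoid values lie below the lowest TTF value, and the B cell lines lie above the T cell lines. The difference was 1.23 ± 0.12 (SE), or 2.34-fold (adjusted p = 0.00237, limma). Its neighbour Gm20767 read 5.883, 5.636 and 6.349 in TTF lines against 4.518 to 5.302 in lymphoid lines, a difference of 0.97 ± 0.14 (adjusted p = 0.0209, limma). Tcstv1, named for the 2-cell-stage variable group, read 4.603, 4.601 and 5.060 against 4.096 to 4.204, a difference of 0.60 (adjusted p = 0.0366, limma). TTF clone 3 was the highest line for all 3 genes. The stretch of chromosome 13 from Tcstv1 to AF067061 holds 23 RefSeq genes, of which these 3 were measured. Its ends were set at called genes, so it is no test of the region. Their relatives Tcstv3 and BC147527, elsewhere on the chromosome, were not called (adjusted p = 0.748 and 0.948, limma). Usp17la, a deubiquitinase of another multicopy family that is expressed with the 2-cell programme, read 7.142, 7.077 and 7.330 in TTF lines, 6.552, 6.403 and 6.290 in B cell lines and 6.249, 6.146 and 6.145 in T cell lines. Its difference was 0.89 ± 0.12 (adjusted p = 0.0125, limma). The probe sets of such families can detect near-identical copies, so the copy that gives the signal is uncertain.

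Most other 2-cell and germ cell genes were not called. Of 18 measured germline and 2-cell genes 2 were called higher (Usp17la and Tcstv1) and 0 lower, against 0.331% and 0.0242% of all genes. The median difference was 0.038 against -0.018 over all genes. Dnd1, an RNA-binding factor of germ cells, differed by -0.28 (adjusted p = 0.0925, limma) with all TTF values below the lymphoid ones. Zfp352, another 2-cell transcript, differed by 0.05 (adjusted p = 0.811, limma), and Dppa3 by -0.14 (adjusted p = 0.51, limma).

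Both measured maternal RNAs of the Dlk1-Dio3 region rose in TTF lines. Meg3 read 10.992, 11.113 and 10.975 in TTF lines, 9.419, 9.942 and 9.810 in B cell lines and 10.225, 10.447 and 10.616 in T cell lines. The 3 origins do not overlap: TTF lines were highest, T cell lines intermediate and B cell lines lowest. The difference from the lymphoid mean was 0.95 ± 0.11, or 1.93-fold (adjusted p = 0.0088, limma). All 5 probe sets of Meg3 gave the same sign. Rian, a host of small nucleolar RNAs, read 8.993, 8.939 and 8.613 in TTF lines against 7.322, 7.809 and 7.667 in B cell lines and 8.295, 8.520 and 8.558 in T cell lines, a difference of 0.82 ± 0.14 (adjusted p = 0.0366, limma). For Rian the lowest TTF clone stands only just above the highest T cell clone. With the mean of its 3 probe sets Rian differed by 0.88 and was not called (adjusted p = 0.0655, limma). Against B cell lines Meg3 differed by 1.30 (adjusted p = 0.00413, limma) and Rian by 1.25 (adjusted p = 0.0143), and against T cell lines by 0.60 (adjusted p = 0.104) and 0.39 (adjusted p = 0.243). Between B cell and T cell lines Meg3 differed by -0.71 (adjusted p = 0.218, limma), which was not called. Dlk1, the paternally expressed growth regulator of the region, differed by 0.05 ± 0.12 (adjusted p = 0.907, limma). From Meg3 to Rian chromosome 12 holds 21 RefSeq genes, of which 2 were measured. These 2 are the called genes that set its ends, so the stretch is no test of the region. Of 20 measured imprinted genes elsewhere 0 were called by limma (1 higher and 4 lower at an unadjusted p under 0.05). Over all genes 5.7% were higher and 7.37% lower at that unadjusted p.

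**Figure D2:**
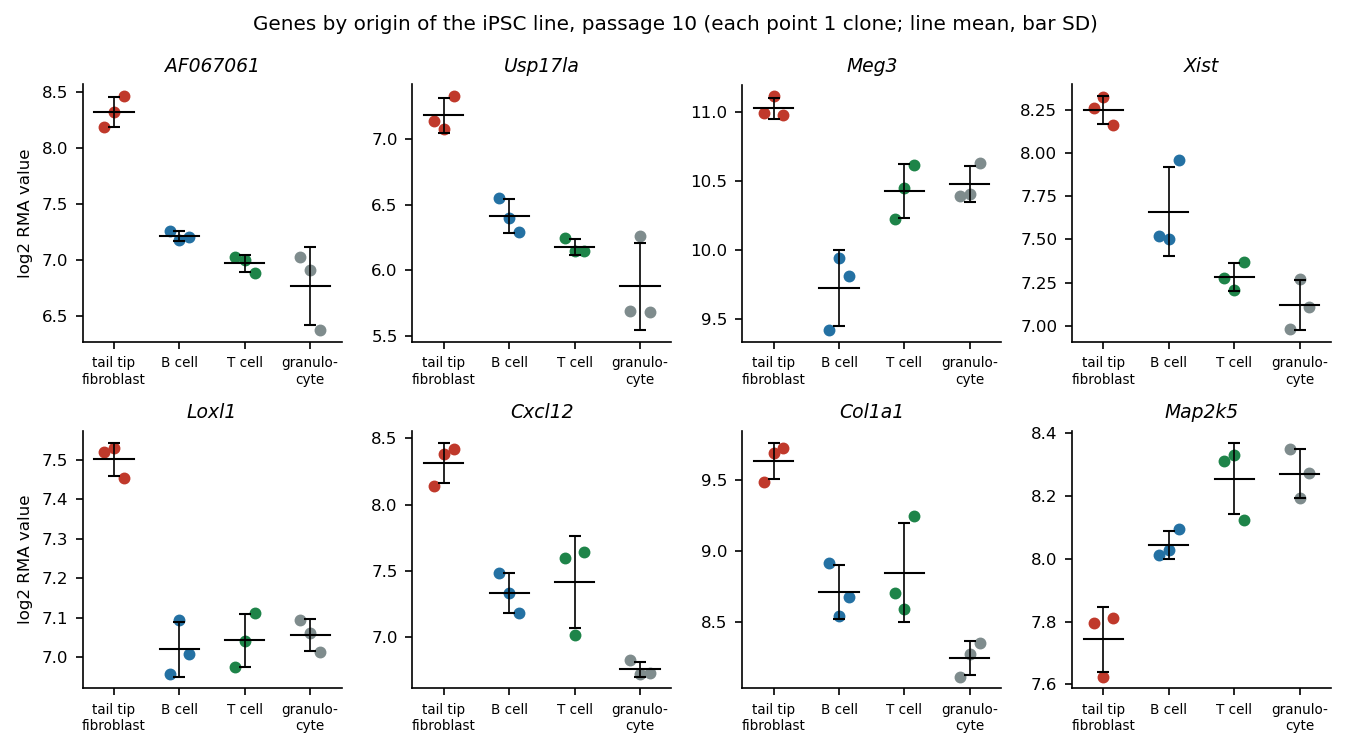
Log2 RMA values of 8 genes in each clone by origin of the line (points), with the group mean (line) and SD (bar), n = 3. The TTF clones lie above all B cell and T cell clones in each panel but Map2k5, where they lie below.

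Xist, the RNA that coats the inactive X chromosome, read 8.262, 8.326 and 8.164 in TTF lines, 7.522, 7.502 and 7.962 in B cell lines and 7.277, 7.205 and 7.367 in T cell lines. B clone 3 stands between the TTF lines and the other lymphoid lines. The difference was 0.78 ± 0.10, or 1.72-fold (adjusted p = 0.0125, limma). With the mean of its 3 probe sets it was 0.28 and not called (adjusted p = 0.125, limma). Its antisense partner Tsix differed by 0.35 (adjusted p = 0.18, limma). The 402 measured X-linked genes had a median difference of -0.0066 against -0.0187 for 11958 autosomal genes, and 3 of them were called: Xist, Dynlt3, a dynein light chain, and Zfp185, which was lower. With the mean of probe sets Dynlt3 differed by 0.52 and was not called (adjusted p = 0.0659, limma).

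The collagen genes Col1a1, Col1a2, Col3a1 and Col8a1 rose in TTF lines, and the other 12 measured collagens did not pass the test. Of 16 measured collagens on the list 4 were called higher and 0 lower, with a median difference of 0.41 against -0.018 over all genes. At an unadjusted p under 0.05 11 were higher. Of all genes 0.331% were called higher, and 5.7% were higher at that unadjusted p. Col1a1, a chain of type I collagen, read 9.487, 9.695 and 9.724 in TTF lines, 8.916, 8.536 and 8.671 in B cell lines and 8.699, 8.590 and 9.243 in T cell lines. T clone 3 came nearest to the TTF lines. The difference was 0.86 ± 0.13, or 1.82-fold (adjusted p = 0.0302, limma). Col1a2, the other chain, read 11.795, 12.093 and 11.472 against 10.501 to 11.195 (0.95 ± 0.15, adjusted p = 0.0352, limma). Col3a1 of type III collagen differed by 0.85 (adjusted p = 0.0366, limma) and Col8a1 by 0.92 (adjusted p = 0.0482). With the mean of probe sets Col8a1 differed by 0.47 and was not called (adjusted p = 0.134, limma). Col4a1 and Col4a2, which form the basement membrane network, differed by -0.08 and -0.10 (adjusted p = 0.855 and 0.777, limma). Epithelial and endodermal cells make these type IV chains too.

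Of 27 measured matrix and surface genes of fibroblasts 5 were called higher (0.331% of all genes) and 0 lower, with a median of 0.47. At an unadjusted p under 0.05 21 were higher and 2 lower (5.7% and 7.37% of all genes). Loxl1, an enzyme that crosslinks elastin, read 7.521, 7.531 and 7.454 in TTF lines and 6.958 to 7.111 in the 6 lymphoid lines. The clones of each group lay close together, and the difference of 0.47 ± 0.06 had an adjusted p of 0.0088 (limma). Fbln2, an elastic fibre protein, differed by 0.88 (adjusted p = 0.0465, limma), Mfap5, a microfibril component, by 0.56 (adjusted p = 0.0482), and Thy1, a surface glycoprotein, by 0.67 (adjusted p = 0.0429). With the mean of probe sets Mfap5 differed by 0.46 and was not called (adjusted p = 0.0866, limma). Postn, a matricellular protein, read 7.485, 6.978 and 7.720 against 6.422 to 6.996 and is the called gene whose groups overlap, TTF clone 2 lying below T clone 3 (0.69, adjusted p = 0.0465, limma). Mgp, an inhibitor of calcification, read 11.062, 11.172 and 11.716 against 9.754 to 10.697, a difference of 1.04 ± 0.21 that was not called (adjusted p = 0.0599, limma). Cd44, the hyaluronan receptor, differed by 1.03 ± 0.24 and was not called either (adjusted p = 0.103, limma), its TTF clones reading 7.979, 8.601 and 7.309. Pdgfra and Fbln1 differed by -0.26 and -0.25 and were not called (adjusted p = 0.369 and 0.357, limma).

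Cxcl12, the chemokine that retains blood progenitors in bone marrow, read 8.141, 8.385 and 8.421 in TTF lines, 7.481, 7.334 and 7.180 in B cell lines and 7.594, 7.015 and 7.640 in T cell lines. T clone 2 is the lowest line. The difference was 0.94 ± 0.13, or 1.92-fold (adjusted p = 0.0125, limma). Cxcl12 was the 1 gene called (0.355% of all genes) of 14 cytokines and chemokines, whose median was 0.21. Prkg2, a cyclic GMP-dependent kinase, differed by 1.04 ± 0.19 (adjusted p = 0.0482, limma), with TTF values of 6.582, 6.731 and 6.771 against 5.014 to 6.059. Tm4sf1, a surface protein of mesenchymal and endothelial cells, differed by 1.00 ± 0.17 (adjusted p = 0.0395, limma). Osmr, the oncostatin M receptor, differed by 0.79 (adjusted p = 0.0366, limma), and Ereg, a ligand of the EGF receptor, by 0.75 (adjusted p = 0.0366). With the mean of probe sets Cxcl12 differed by 0.53 and was still called (adjusted p = 0.0274, limma), whereas Prkg2 at 0.54 (adjusted p = 0.0555), Tm4sf1 at 0.59 (adjusted p = 0.0555) and Osmr at 0.33 (adjusted p = 0.171) were not. Acta2, the smooth muscle actin of activated fibroblasts, differed by 0.70 (adjusted p = 0.0465, limma) and was the 1 gene called of 14 contractile genes (0.355% of all genes). It was not called with the mean of its probe sets (0.33, adjusted p = 0.196, limma). Cdkn2a, which encodes the cell cycle inhibitors p16 and p19, read 6.628, 6.715 and 6.523 against 5.739 to 6.380 (0.63, adjusted p = 0.0465, limma). Its neighbour Cdkn2b differed by 0.66 (adjusted p = 0.0599, limma) and was not called. Other called genes were Ogn, Pla2g4a, Synpo, Gng11, Rhoj, Ctla2a, Masp1, Lbh, Cpq, Ifi202b, Sqor, Arhgap24, Grb14, Sytl2, Dnajb4, Gadd45g and Serpinb6b, with differences from 0.42 (Dnajb4, Gadd45g and Serpinb6b) to 0.80 (Ogn and Pla2g4a). With the mean of probe sets Ogn (0.49), Synpo (0.39), Masp1 (0.32), Sqor (0.28), Cpq (0.27), Dnajb4 (0.23) and Lbh (0.18) were not called, with adjusted p from 0.076 to 0.357 (limma).

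Transcription factors, proteases and TGF-beta targets of mesenchymal cells had positive medians, but 0 of their genes were called by limma. Of 18 mesenchymal transcription factors 7 were higher and 0 lower at an unadjusted p under 0.05 (median 0.16). Over all genes 5.7% were higher and 7.37% lower at that unadjusted p. Prrx1, a limb mesenchyme factor, read 7.379, 7.372 and 7.520 against 5.847 to 6.882 (0.87, adjusted p = 0.0599, limma). Of 18 proteases and inhibitors 8 were higher and 1 lower at an unadjusted p under 0.05, among them Timp2 at 0.77 (adjusted p = 0.0697, limma). Of 19 TGF-beta targets 6 were higher and 1 lower (unadjusted). Inhba, a subunit of activin, had the largest difference of the genes described here, 1.83 ± 0.38, but its TTF clones read 9.318, 10.396 and 7.977 and overlap the lymphoid range of 6.981 to 8.028 (adjusted p = 0.0678, limma).

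**Figure D3:**
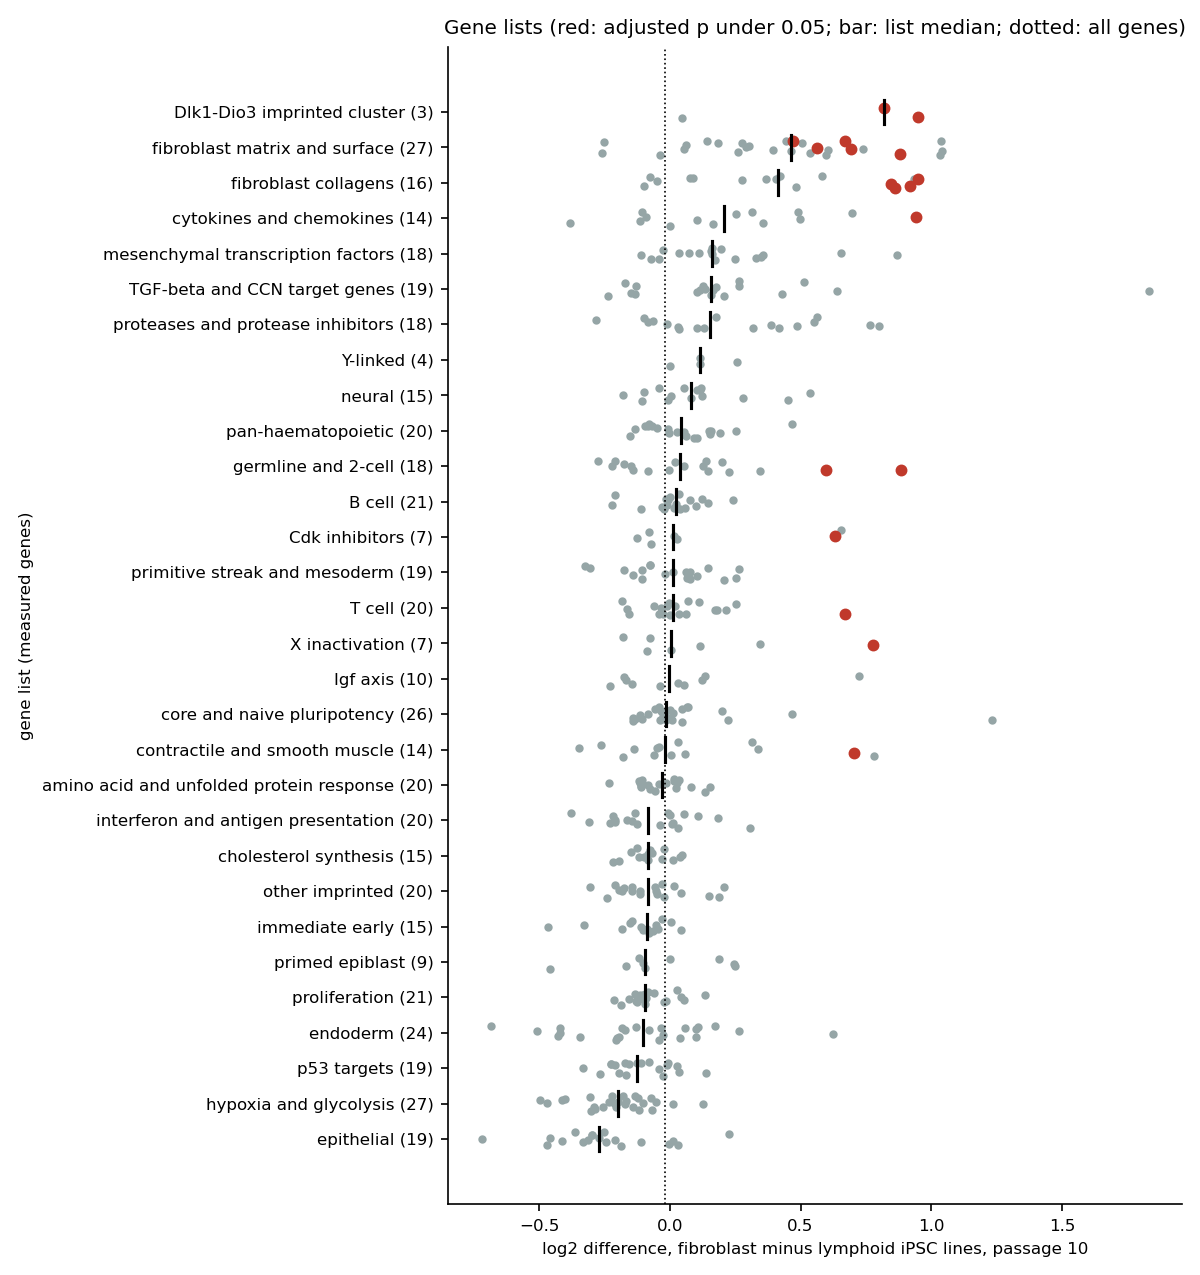
Log2 difference of TTF from lymphoid lines at passage 10 for every measured gene of 30 lists (points), with the number measured in brackets, the list median (bar) and the median of all genes (dotted line), called genes in red. The Dlk1-Dio3 and the 2 fibroblast lists have the highest medians (0.82, 0.47 and 0.41) and the epithelial list has the lowest, -0.27.

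On the lower side only 3 genes were called. Map2k5, a kinase that activates Erk5, read 7.794, 7.625 and 7.810 in TTF lines, 8.010, 8.028 and 8.094 in B cell lines and 8.311, 8.328 and 8.123 in T cell lines. All TTF values lie below all lymphoid values, by -0.41 ± 0.07 on average (adjusted p = 0.0366, limma), and by -0.26 with the mean of its probe sets (adjusted p = 0.209). Rapgef6, an exchange factor for Rap GTPases, differed by -0.55 ± 0.10 (adjusted p = 0.0465, limma), and Zfp185, a LIM domain protein, by -0.48 ± 0.09 (adjusted p = 0.0482). With the mean of probe sets Zfp185 differed by -0.33 and was not called (adjusted p = 0.0555, limma). The next genes without overlap, none of them called, were Nos3 at -0.41, Lama1 at -0.43, Pdgfb at -0.38, Pacs2 at -0.27, Limk2 at -0.25, Bbc3 at -0.33, Gch1 at -0.53, Ccnj at -0.37 and Kif5a at -0.30, with adjusted p from 0.0551 to 0.0743 (limma).

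Epithelial, glycolytic and p53 target genes had medians below that of all genes, with 0 called in each list by limma. Of 19 epithelial genes 1 was higher and 11 were lower at an unadjusted p under 0.05 (median -0.27). Over all genes 5.7% were higher and 7.37% lower at that unadjusted p. Krt19, an intermediate filament of simple epithelia, read 8.834, 9.035 and 9.019 in TTF lines against 9.416 to 10.130 (-0.72 ± 0.17, adjusted p = 0.103, limma), and Epcam, the adhesion molecule of epithelial and pluripotent cells, differed by -0.25 (adjusted p = 0.165). Of 27 hypoxia and glycolysis genes 9 were lower and 0 higher (unadjusted, median -0.20), such as the enzyme gene Tpi1 at -0.26 (adjusted p = 0.237, limma). Of 19 p53 targets 8 were lower and 0 higher (unadjusted, median -0.13), such as Zmat3 at -0.23 (adjusted p = 0.125, limma). Of 24 endoderm genes 8 were lower and 1 higher (unadjusted, median -0.10). The median of this list was -0.166 against B cell lines and -0.007 against T cell lines. Cubn, a receptor of visceral endoderm, read 7.685, 7.414 and 7.612 in B cell lines, 6.208, 6.854 and 6.668 in TTF lines and 6.639, 6.708 and 6.457 in T cell lines. Its difference of -0.51 was not called (adjusted p = 0.176, limma).

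The mean of the 43 measured genes of both fibroblast lists was 8.560, 8.724 and 8.653 in TTF lines, 8.266, 8.095 and 8.153 in B cell lines, 8.289, 8.039 and 8.424 in T cell lines and 7.768, 7.812 and 7.781 in granulocyte lines. The TTF lines were highest and the granulocyte lines lowest, without overlap. Of the 44 called genes 9 belong to these lists, and 32 of the 41 genes called higher do not. T clone 3, the lymphoid line with the highest mean, read above T clone 2, the one with the lowest, in 26 of those 32 (48% of all genes). The granulocyte mean lay below the lymphoid mean in 27 of the 32 (53.1% of all genes). In a bulk culture fewer fibroblasts and less fibroblast RNA per cell cannot be told apart, nor can fibroblast RNA of the lines from that of the feeder cells. The share of feeder cells was not measured, and its part in the differences was not tested.

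The contrast was also fitted with this mean as a covariate. The mean holds 9 of the called genes, among them Col1a1, Fbln2, Loxl1 and Postn. It does not overlap between TTF lines and the others, so the fit has little by which to tell it apart from origin. The values of the fit are a description. In this fit 0 genes were called by limma (849 at an unadjusted p under 0.05), and the smallest adjusted p of a called gene was 0.548. AF067061 had a difference of 1.22 ± 0.26 (SE), against an SE of 0.12 without the covariate. Meg3 read 1.02 ± 0.25, Loxl1 0.48 ± 0.12, Postn 0.76 ± 0.28 and Xist 0.63 ± 0.22. Cxcl12 read 0.26 ± 0.16, Prkg2 0.19 ± 0.33, Col1a1 0.16 ± 0.17, Tm4sf1 0.10 ± 0.23, Fbln2 -0.03 ± 0.18 and Synpo -0.01 ± 0.17. Differences between these genes were not tested.

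**Figure D4:**
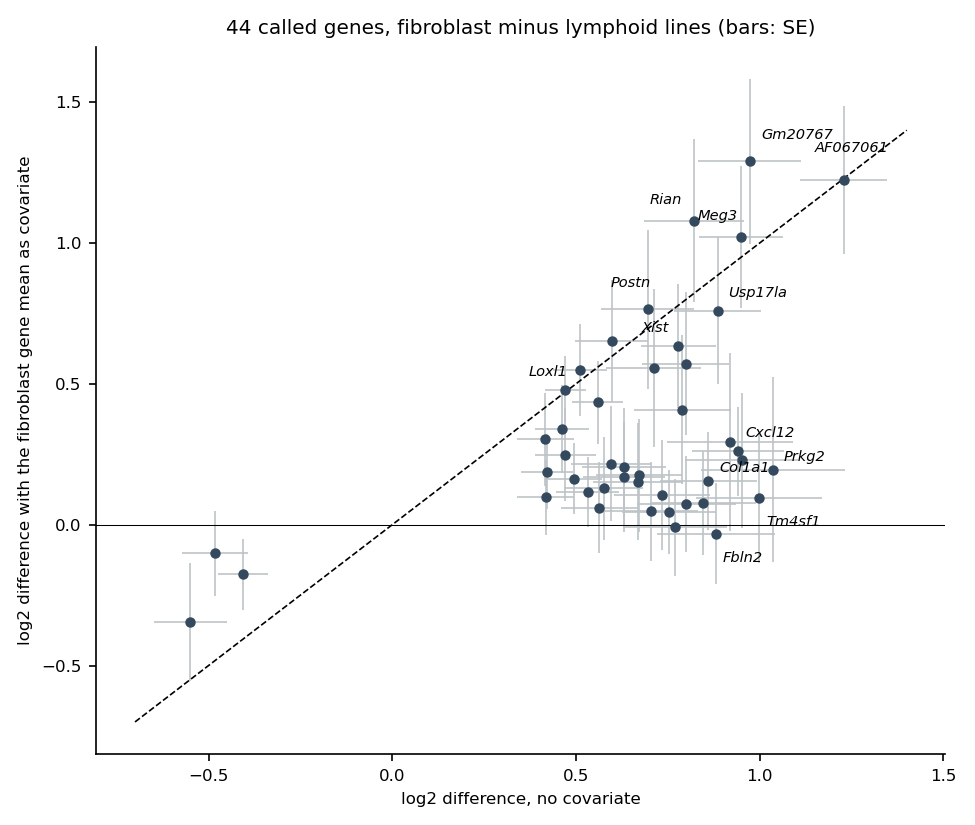
Log2 difference of TTF from lymphoid lines for the 44 called genes without (x axis) and with (y axis) the fibroblast gene mean as a covariate, with SE bars and the line of equality (dashed). AF067061, Gm20767, Meg3, Rian and Loxl1 lie near the line or above it, and Fbln2, Tm4sf1 and Col1a1 lie near 0. Loxl1, Fbln2 and Col1a1 are themselves part of the mean.

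Set against each lymphoid origin alone, the 41 genes called higher had a positive difference against both B cell and T cell lines. For 40 of them this sign follows from all TTF values lying above all lymphoid values, so it is no separate result. Against B cell lines 6 genes were called (0.0484%), all higher: Meg3, AF067061, Rian, Loxl1, Ifi202b and Cxcl12. Against T cell lines 11 were called (0.0888%), 9 higher (0.0726%; AF067061, Xist, Usp17la, Gm20767, Loxl1, Ifi202b, Arhgap24, Ogn and Cxcl12) and 2 lower (0.0161%; Map2k5 and Pdgfb). AF067061, Loxl1, Ifi202b and Cxcl12 were called against both, and these comparisons share the TTF arrays. Leaving out 1 clone moved the count against B cell lines to 2 (TTF clone 1, TTF clone 2 or B clone 3), 11 (B clone 1), 17 (T clone 3) or 61 (T clone 2). The count against T cell lines moved to 1 (TTF clone 1 or T clone 2), 2 (TTF clone 2, T clone 1 or B clone 2), 5 (granulocyte clone 3), 6 (B clone 3), 58 (T clone 3) or 101 (TTF clone 3). Between B cell and T cell lines 0 genes were called by limma, with 1084 (8.75%) at an unadjusted p under 0.05. Over all genes, arrays correlated on average at 0.9971 within TTF lines, 0.9967 between TTF and B cell lines, 0.996 between TTF and T cell lines and 0.9971 between B cell and T cell lines, against 0.9889 between TTF and granulocyte lines.

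Clones of 1 origin also differed among themselves. Between the highest and lowest clone 59 genes spanned over 1 log2 unit in TTF lines, 41 in B cell lines and 19 in T cell lines. The widest TTF spans, picked after the values were seen, included Serpina1c, Akap9, Cenpe, Kdm5a, Resf1, Tet1 and Alb. Serpina1c, with the widest span, read 3.643 and 3.414 in TTF clones 1 and 2 but 6.820 in clone 3. Alb was also highest in clone 3 (5.884, 5.799 and 7.840), whereas the other genes named were lowest there. The cause of these spans was not tested. Tet1, a DNA demethylase of pluripotent cells, read 8.682 and 8.982 in TTF clones 1 and 2 but 6.329 in clone 3, and 8.405 in B clone 3 against 6.035 to 6.841 in the other lymphoid lines. Cenpe, a mitotic motor, showed the same lines high, at 7.755 and 8.334 in TTF clones 1 and 2 and 7.375 in B clone 3, against 4.539 to 5.373 in the other 6 lines. The difference of Tet1 between origins, 1.23 ± 0.54, was not called (adjusted p = 0.358, limma).

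The same contrast was fitted at passages 4 and 16 in the other table, which comes from another array platform with its own scale and holds 33 arrays. The lines are again 3 clones per origin from mouse 2, and no test was made across the tables. Of the 41 genes called higher at passage 10, 39 were measured there. At passage 4 21 of the 39 had a positive difference (57% of all genes), 9 were called higher and 5 lower, where 1938 of 11807 genes were called (16.4%), 9.08% higher and 7.33% lower. At passage 16 23 were positive (48.1% of all genes) and 0 were called by limma, where 11 of all genes were called (0.0932%), 0.0423% higher and 0.0508% lower. Leaving out TTF clone 2 of passage 4 moved the count of all genes there to 790. At passage 16 it moved to 0 without TTF clone 1, TTF clone 2, T clone 2 or B clone 1, to 2 without TTF clone 3, to 6 without T clone 1 and to 19 without B clone 3. The median of the 39 was 0.015 at passage 4, 0.13 at passage 16 and 0.70 at passage 10.

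Meg3 had the same direction at all passages: at passage 4 the TTF clones read 9.722, 10.148 and 9.995 and the lymphoid clones 6.268 to 8.635, a difference of 2.51 (adjusted p = 0.000214, limma). At passage 16 the TTF clones read 9.202, 7.699 and 9.651 and overlap the lymphoid range of 5.907 to 8.733 (1.60, adjusted p = 0.215, limma). Rian differed by 1.99 at passage 4 (adjusted p = 0.0167, limma) and by 1.48 at passage 16 (adjusted p = 0.518). Usp17la at passage 4 read 9.802, 11.511 and 9.861 in TTF lines, 8.954, 8.821 and 9.378 in B cell lines and 5.636, 6.492 and 5.620 in T cell lines, a difference of 2.91 (adjusted p = 9.62e-06, limma). At passage 16 it differed by -0.31 (adjusted p = 0.962, limma), T cell lines having the highest group mean (9.155, 9.658 and 9.309), with TTF clone 3 at 9.422 among them. AF067061 at passage 4 read 10.207, 11.511 and 9.364 in TTF lines, 10.191, 9.900 and 10.425 in B cell lines and 6.492, 8.616 and 6.563 in T cell lines. The TTF and B cell clones overlap, and the T cell clones lie below both. The difference was 1.66 (adjusted p = 0.013, limma), and at passage 16 it was -0.18 (adjusted p = 0.992). Loxl1 differed by 0.55 at passage 4 (adjusted p = 0.0426, limma) and 0.29 at passage 16 (adjusted p = 0.846). The 14 collagens measured there had a median of 0.053 at passage 4, against 0.051 over all genes. Col3a1 was lower in TTF lines at passage 4, by -1.35 (adjusted p = 0.000807, limma). The TTF clones read 7.482, 6.214 and 6.864 and overlap the B cell clones at 7.672, 7.292 and 7.296. The T cell clones lay above both, at 8.750, 8.970 and 9.247. Col1a1 differed by -0.55 at passage 4 (adjusted p = 0.116, limma) and 0.71 at passage 16 (adjusted p = 0.424), and Acta2 and Postn were called lower at passage 4, by -1.21 and -1.02. Xist differed by -0.43 at passage 4 (adjusted p = 0.261, limma) and by 0.19 at passage 16 (adjusted p = 0.969).

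**Figure D5:**
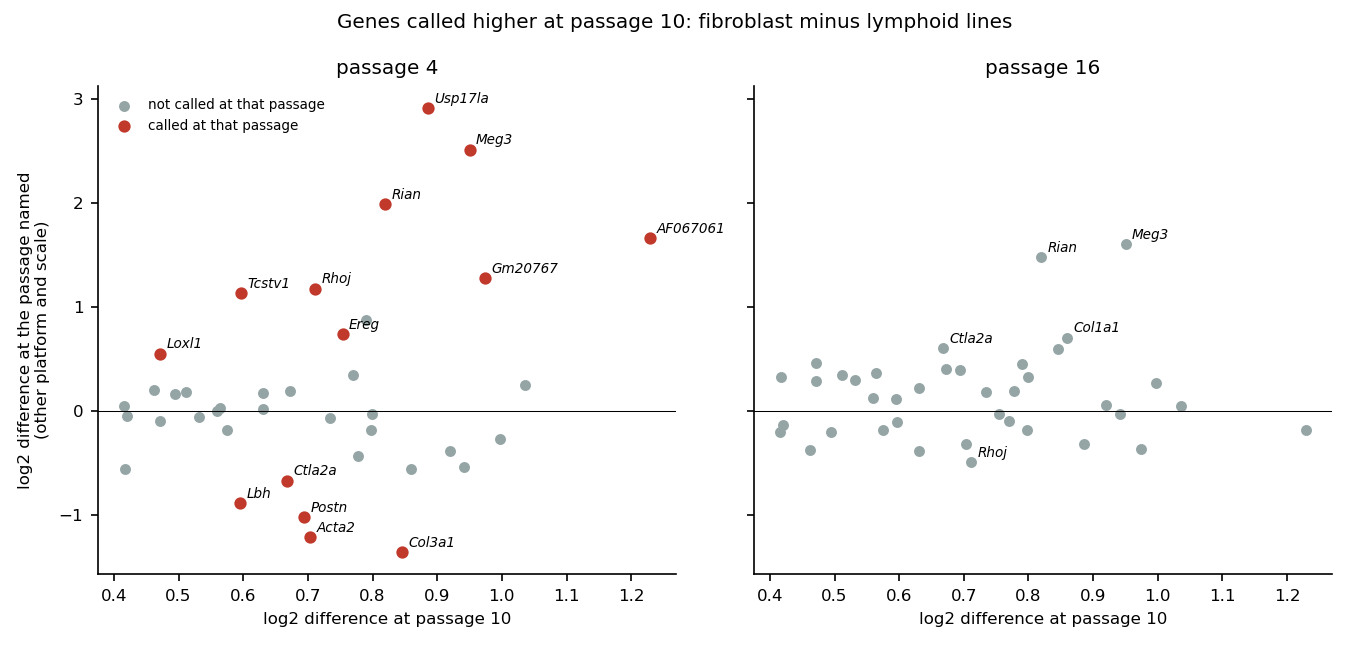
Log2 difference of TTF from lymphoid lines at passage 4 (left) and passage 16 (right) against that at passage 10, for the 39 genes called higher at passage 10 and measured on the other platform, with genes called at the passage shown in red. At passage 4 the called genes lie on both sides of 0, from 2.91 for Usp17la to -1.35 for Col3a1, and at passage 16 Meg3 and Rian lie highest.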

How the data were processed

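The deposited log2 values per probe set are the output of RMA, per the submitters' processing notes. The version of RMA and the annotation are not given in the sources used here. Per the labels, total RNA was made into biotin-labelled cRNA. The passage 10 table holds 12 arrays and 22690 probe sets, and 20393 of these name a single gene, 691 name several and 1606 name none in the platform annotation. Only those that name a single gene were kept. Each gene was read from its brightest probe set, for 12394 genes in all (12370 with a RefSeq gene ID). Passages 4 and 16 came from a table of 33 arrays on another platform, normalized separately, with 11807 genes. No date or batch is named in the labels, and any batch that runs with origin cannot be told apart from origin. Precision is limited by the number of arrays.

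A linear model with 1 mean per group was fitted to all arrays of a table by limma 3.58.1 (lmFit and eBayes, R 4.3.3), and p-values were adjusted over all its genes by Benjamini-Hochberg. The code was tested on simulated data. Errors are standard errors from the model, with n = 3 per group. The text names the 12 largest called differences without overlap in each direction, filled with uncalled genes where fewer were called, every gene called against B or T cell lines, up to 6 members of a described list by absolute moderated t, and 13 genes such as Meg3 that are always given. Other names, among them the remaining called genes, some further members of lists, and the genes with a wide span within an origin, were added after their values were seen. The comparison, the gene lists and the rule were chosen with earlier results of these data known. Alternatives covered normalization, probe set choice, a filter on dim genes, the arrays in the fit, the spread model, clone number as a block, the fibroblast covariate and each array left out in turn.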

Additional observations from a re-analysis of the deposited data

Results flagged for a closer look

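In 6 of 210 sets of the 6 lymphoid lines at passage 10, 1 line stood apart from the others by a gap that passed Dixon's test at the 95% level. Chance alone gives such a gap in about 1 of 20 sets. Tet1 read 8.405 in B clone 3 against a median of 6.579. Prrx1 read 5.847 in T clone 2 (median 6.653), Krt19 10.13 in T clone 2 (median 9.629) and Bbc3 9.0 in T clone 2 (median 8.788). Pmaip1 read 9.26 in B clone 3 (median 9.592), and Usp9y 4.635 in B clone 1 (median 4.462).

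Of 196 genes under the naming rule that were measured at the other passages, 101 had no overlap between TTF and lymphoid lines at passage 10. The rule picks genes in part by this lack of overlap. Over all genes the TTF clones lay above the lymphoid clones in 322 (2.6%) and below in 468 (3.78%). In 5 of the 101 every TTF clone lay on the opposite side of the lymphoid lines at another passage. How often this happens over all genes was not counted. These differences between passages were not tested, and the platforms differ. Lbh differed by -0.88 at passage 4 and 0.60 at passage 10, Ctla2a by -0.67 and 0.67, and Timp3 by -0.60 and 0.80. Masp1 differed by -0.38 at passage 16 and 0.63 at passage 10, and Atf4 by 0.39 and -0.11.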

How the results depend on the processing

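The 44 genes called between TTF and lymphoid lines at passage 10 became 16 with each array centred on its median, 16 with the mean of probe sets, 6 with only the TTF, B cell and T cell arrays, 84 with a trended and robust spread, 0 with the fibroblast covariate and 2 with a log2 difference of at least 1 required. Quantile normalization, cyclic loess, the filter on dim genes and the 6 lymphoid arrays as 1 group gave 36 to 52. Leaving out 1 array gave 1 to 95. Against B cell lines, 6 genes became 42 with the trended spread and 0 with the covariate, and 2 to 61 with an array left out. Against T cell lines, 11 became 5 with the mean of probe sets, 3 with only the 9 arrays, 90 with the trended spread and 0 with the covariate, and 1 to 101 with an array left out. Between B cell and T cell lines, 0 became 5 with the trended spread and 2 with the covariate, and 0 to 1 with an array left out. The 1938 genes of passage 4 became 790 to 1894 with an array left out. The 11 genes of passage 16 became 7 with quantile normalization and 0 to 19 with an array left out. The cause of these moves was not tested. Fbln2 (-0.032) and Synpo (-0.0086) changed sign with the covariate. With clone number as a replicate block the counts were 11, 1 against B cell lines, 1 against T cell lines and 4 at passage 16. Arrays of the same clone number correlated from -0.5 to 0.403 in their deviations from the group means over 2000 genes. Arrays of unlike number were not set beside them, so whether the numbers pair the samples was not tested. Of the 44 genes, 14 were called in most of the 21 or 22 settings that gave them a value.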
